A study of Capra hircus with 4 samples.

Results

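The gene levels of treated library 1 were set against those of treated library 3, which are 2 of the 4 RNA-seq libraries of the series. Both came from the longissimus dorsi muscle of Cashmere goats aged 2 months that received ractopamine, a β2-adrenergic agonist, by mouth at 1 mg/kg body weight. The labels give 28 dosing days followed by 21 withdrawal days for the experimental group, and describe no difference between the treated libraries other than their number. RNA-seq was done, by the study's methods, on a dosing day and on an earlier and a later withdrawal day, so the 3 treated libraries may be those time points. The labels tie none of them to a day, and day, animal and library cannot be told apart here. There was 1 library a side, so no test of a condition was made and no p-value is given. The remaining 2 libraries, 1 labelled control and treated library 2, are quoted only as background.

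A gene was described when its assembled sequences, called unigenes, held 50 or more expected counts in treated libraries 1 and 3 together. This held for 5590 of the 11208 goat gene names, of which 405 were provisional LOC names, and 5618 names stayed below the minimum. Levels are counts per 1000000 (CPM), scaled to the sum over the named goat genes of the same library. A ratio is the level in treated library 1 divided by that in treated library 3, and it carries a 95% exact Clopper-Pearson interval that covers counting error only, since PCR copies were not marked by molecular identifiers and no second library measures the spread between goats.

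Treated library 1 held 7962590 counts, of which 3991046 (50.1%) lay on named goat genes, and treated library 3 held 6675218, of which 2697657 (40.4%) did. The control library had 71.3% of its 8533046 counts on these genes, and treated library 2 had 133809 counts or 1.82%, so that 3 counts there already correspond to 22.4 CPM and single genes of that library are read with caution. Mitochondrially encoded proteins without a gene name in the pairing table took 37.5% of all counts in treated library 1 and 49.7% in treated library 3, against 22.2% in the control, and were left out of the sum. Muscle identity was clear in both libraries, where CKM, DES, MB, RYR1, CASQ1 and TNNT3 together with MYH2 and ACTA1 summed to 98275 and 151590 CPM. ACTA1 itself had only 6 and 3 counts, because the skeletal actin unigene is paired with the name ACTA2 in the authors' table.

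In skeletal muscle, β2-agonists bind a receptor on the fibre that raises cyclic AMP, and protein kinase A then phosphorylates CREB-family factors that switch on early response genes within a short time. Phosphodiesterases, CREM repressors and dual-specificity phosphatases damp this signal. Muscle fibres also answer stretch, injury and heat with proteins of the Z-disc and with small heat shock proteins, and differ by fibre type in their myosins and in their use of glycolysis or mitochondrial oxidation.

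Of the 5590 genes, 750 (13.4%) were at least 2-fold higher in treated library 1 and 361 (6.46%) were at least 2-fold higher in treated library 3. The other 4479 genes, 80.1%, lay within 2-fold. The median log2 ratio was 0.05, the middle 50% of genes lay between -0.41 and 0.58, and the 5th and 95th percentiles were -1.10 and 1.72. The upper tail was the longer one, because 140 genes were 5-fold or more higher in treated library 1 and 14 in treated library 3. At 10-fold the counts were 49 and 1. Counting error alone left 352 genes with a whole interval above 2 and 108 with a whole interval below 0.5. The typical interval spanned a factor of 1.91 between its bounds at a median of 181 counts a gene. The split of the calls followed the scaling, since 67.5% of the calls were higher in treated library 1 here, 88.4% with all expected counts as the total, where the median log2 ratio moved up by 0.31, and 51.7% when the 20 most abundant genes were left out of the sum, where it moved by -0.17.

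**Figure D1:**
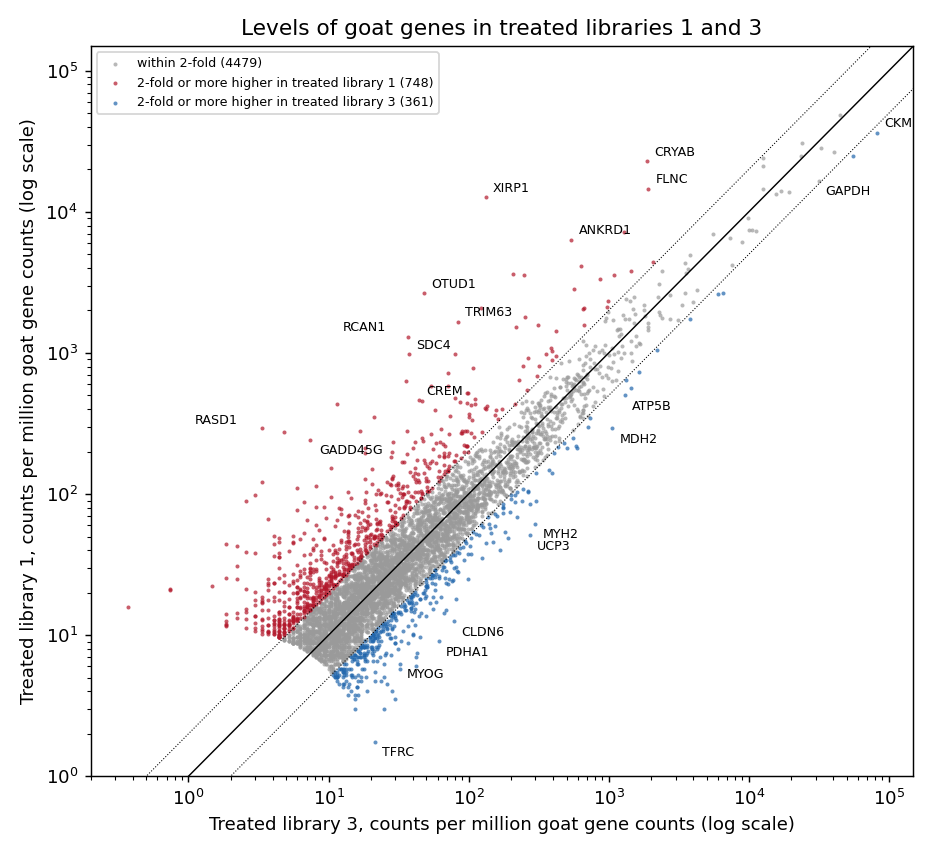
Levels of goat genes with 50 or more counts, in CPM on log axes, with treated library 3 on the horizontal and treated library 1 on the vertical axis. The solid line marks equal levels and the dotted lines a 2-fold difference; red points (748) are higher in treated library 1, blue points (361) are higher in treated library 3, and 2 genes without counts in treated library 3 cannot be drawn. XIRP1 lies farthest above the line and the red points reach farther from it than the blue points.

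The 12 genes with the highest lower interval bound in treated library 1 were XIRP1, OTUD1, RASD1, HSPA6, RCAN1, TNFRSF12A, PARP3, SDC4, GADD45G, MYC, TRIM63 and THBS1. Those with the lowest upper bound, and so higher in treated library 3, were TFRC, CCL16, PDHA1, UCP3, CLDN6, CD300LG, CAMK2G, MYH2, TSPAN18, AOC3, CD93 and SNTB1. To show what was counted, the first 90 bases of the coding stretch of the unigene are printed for a few genes at the 2 ends, read 5′ to 3′ from the deposited annotation, with the start codon in capitals. The names behind XIRP1, OTUD1 and RCAN1 rest on protein matches of 99%, 98% and 100% identity, and those behind UCP3, PDHA1 and MDH2 on 99%, 99% and 100%.
XIRP1: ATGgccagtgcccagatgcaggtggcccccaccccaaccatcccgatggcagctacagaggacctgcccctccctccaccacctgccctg
OTUD1: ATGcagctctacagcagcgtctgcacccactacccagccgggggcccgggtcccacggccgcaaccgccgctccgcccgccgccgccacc
RCAN1: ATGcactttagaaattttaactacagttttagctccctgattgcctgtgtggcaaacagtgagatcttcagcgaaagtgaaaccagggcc
UCP3: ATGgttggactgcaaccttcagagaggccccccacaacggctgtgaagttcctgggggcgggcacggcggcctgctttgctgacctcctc
PDHA1: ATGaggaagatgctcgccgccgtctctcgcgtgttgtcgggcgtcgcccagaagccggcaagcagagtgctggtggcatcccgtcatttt
MDH2: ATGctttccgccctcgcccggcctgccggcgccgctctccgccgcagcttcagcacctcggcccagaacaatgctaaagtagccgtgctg

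XIRP1 encodes Xin, an actin-binding repeat protein found at muscle attachment sites and in regenerating fibres. It had 50671 counts in treated library 1, 358 in treated library 3, 8844 in the control and 42 in treated library 2, which gave 12696, 133 and 1453 CPM in the first 3 of these. The ratio of 95.7 (86.2 to 106) was carried by a unigene with 50534 and 356 counts. The control lay between the 2 treated libraries and apart from both. OTUD1, a deubiquitinating enzyme, had 2654 and 47.8 CPM in treated libraries 1 and 3 and 234 in the control, a ratio of 55.5 (46.7 to 66.6). RASD1, a Ras-like protein induced by glucocorticoids, had 1180 and 9 counts, a ratio of 88.6 (46.5 to 194). HSPA6, a heat shock protein of the Hsp70 family that cells make mainly under stress, had 1107 and 13 counts in treated libraries 1 and 3 and 20 in the control, a ratio of 57.6 (33.5 to 108). Here the control was at the level of treated library 3.

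RCAN1, an inhibitor of the calcium-dependent phosphatase calcineurin, stood at 1303, 36.7 and 98.6 CPM in treated library 1, treated library 3 and the control, a ratio of 35.5 (29.1 to 43.8). The receptor of the cytokine TWEAK, TNFRSF12A, had a ratio of 37.7 (26.5 to 55.7) and SDC4, the heparan sulphate proteoglycan syndecan-4, one of 26.1 (21.4 to 32.1). GADD45G, a stress-response gene that slows cell growth, had 967 and 20 counts. The transcription factor MYC had 484 and 9 counts, a ratio of 36.4 (18.99 to 79.98), and THBS1, which encodes the matrix glycoprotein thrombospondin-1, had 393 and 8. TRIM63, the ubiquitin ligase MuRF1 that marks sarcomere proteins for degradation, had 6629 and 227 counts, a ratio of 19.7 (17.3 to 22.6). PARP3, an enzyme of DNA break repair, had 145 counts in treated library 1 and 0 in treated library 3, where 3 counts would make it at least 32.7-fold higher in treated library 1. For all 12 genes treated library 1 also exceeded the control, by a margin visible in the plot of ranked genes by library.

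**Figure D2:**
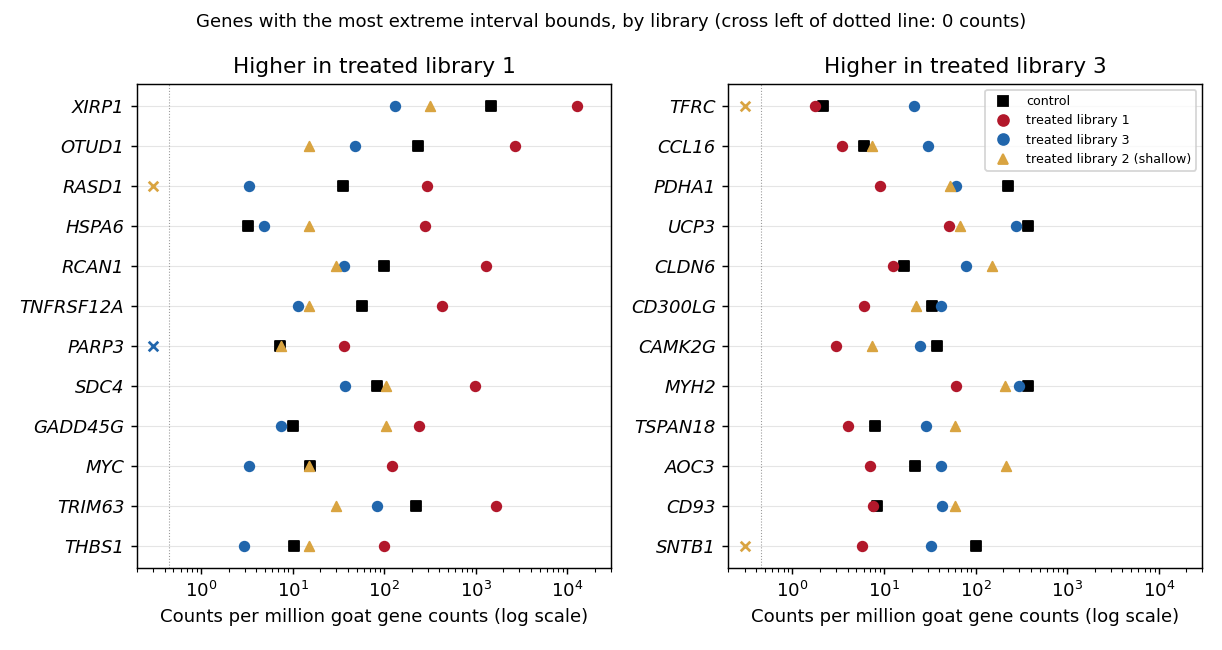
CPM (counts per 1000000 goat gene counts, log axis) of the 12 genes at each end of the ranking, in the control (black squares), treated library 1 (red circles), treated library 3 (blue circles) and the shallow treated library 2 (yellow triangles). Crosses left of the dotted line stand for 0 counts. On the left, treated library 1 lies to the right of every other library for each gene, and on the right it lies to the left of treated library 3 and of the control for each gene.

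Genes at the other end had fewer counts and smaller folds. TFRC, the transferrin receptor for iron uptake, had 7 counts in treated library 1 and 58 in treated library 3, 12.3-fold higher in the latter (5.59 to 31.8). PDHA1, a catalytic subunit of the pyruvate dehydrogenase complex, had 9.02, 61.2 and 227 CPM in treated library 1, treated library 3 and the control, 6.78-fold higher in treated library 3 than in treated library 1 (4.70 to 10.02). UCP3, an uncoupling protein of the inner mitochondrial membrane in muscle, had 50.9, 274 and 374 CPM in the same order, 5.39-fold higher in treated library 3 (4.60 to 6.32). MYH2, the myosin heavy chain of type IIA fibres, had 61.4, 300 and 374 CPM, 4.89-fold higher (4.23 to 5.67). Its 245 and 810 counts lay in 4 short unigenes, the most abundant of 288 bases. How reads were shared with other myosins was not tested. PDHA1, UCP3 and MYH2 were thus lower in treated library 1 than in either of the other 2 libraries. CAMK2G, a subunit of a calmodulin-dependent kinase, had 12 and 67 counts and SNTB1, β1-syntrophin of the dystrophin complex, had 23 and 88, while the control had 38.0 and 101 CPM, above both treated libraries.

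CD300LG and CD93, surface proteins of endothelial cells, were 7.03-fold (4.50 to 11.4) and 5.67-fold (3.77 to 8.78) higher in treated library 3. AOC3, an amine oxidase known as vascular adhesion protein 1, was 5.97-fold higher (3.92 to 9.38). The tetraspanin TSPAN18 had 16 and 77 counts and the chemokine gene CCL16 had 14 and 81. The name CLDN6 rests on a protein match of 53% identity, and the best nucleotide match of that unigene is CLDN5, a claudin of vascular tight junctions; it had 50 and 211 counts, 6.24-fold higher in treated library 3 (4.57 to 8.68). In a piece of muscle, fewer cells of a type and less RNA per cell cannot be told apart.

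Early response genes were mostly higher in treated library 1. Of 15 immediate early and cAMP-responsive transcription factors described, from a list of 23, 10 (66.7%) were at least 2-fold higher and 0 were at least 2-fold lower, against 13.4% and 6.46% of all genes, with a median log2 ratio of 1.61 against 0.05 over all genes. CREM, which encodes cAMP-responsive activators and repressors, had 1843 and 120 counts. FOSL1, an AP-1 subunit, had 84 and 2 counts, a ratio of 28.4 (7.62 to 238), and NFIL3, a leucine zipper repressor, had 612 and 28, a ratio of 14.8 (10.1 to 22.4). FOSL2 had a ratio of 5.02 (3.72 to 6.91) and FOS one of 3.06 (2.66 to 3.54), both AP-1 subunits too. JUN stood at 889 and 394 CPM, and part of its counts lay in a unigene of 80% identity whose nucleotide match is JUND. Not every member followed: NR4A1, an orphan nuclear receptor that β2-agonists are known to induce in muscle, stood at 169 and 192 CPM, a ratio of 0.88 (0.78 to 0.99) that passed 1 with all expected counts as the total, and its 2 unigenes lay on different sides of 1. CITED2 had 56 and 14 counts, of which 50.0% lay in a unigene of 49% identity that matches CITED4, and it came inside 2-fold with matches of 80% identity or more.

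Genes that feed back on cAMP and early signals were also mostly higher, with 14 of 18 (77.8%, against 13.4% of all genes) at least 2-fold higher in treated library 1, 0 at least 2-fold lower and a median log2 ratio of 1.69. Among the 14, IER2 and ZFP36L1 fell below a ratio of 1 with matches of 80% identity or more, to 0.82 and 0.74. PDE4D, a phosphodiesterase that degrades cAMP, had 1816 and 126 counts, a ratio of 9.74 (8.13 to 11.8), and PDE4C had a ratio of 1.39 (1.27 to 1.51). At the low end, PDE4B had 30.1 CPM in treated library 1 and 59.3 in treated library 3. CSRNP1, a nuclear factor induced by axin, had 1110 and 45 counts, a ratio of 16.7 (12.4 to 23.0). GADD45B had 100 and 10 counts. DUSP1, a phosphatase that switches off MAP kinases, stood at 397 and 156 CPM, a ratio of 2.55 (2.29 to 2.84), and ZFP36, which promotes decay of AU-rich mRNAs, at 279 and 94.2, a ratio of 2.96 (2.58 to 3.41). PER1, a clock gene that also answers cAMP, had a ratio of 2.95 (2.45 to 3.57).

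Fibre strain and repair genes also had a median beyond 1 on the log2 scale. Among 19 described, 12 (63.2%) were at least 2-fold higher in treated library 1 and 1 (5.26%) was at least 2-fold lower. The shares of all genes were 13.4% and 6.46%, and the median log2 ratio of the list was 1.40. After XIRP1 came KLHL40, a kelch protein that stabilises thin filaments, with 3583 and 250 CPM and a ratio of 14.3 (13.3 to 15.5), and ANKRD1, a titin-binding ankyrin repeat protein, with 6334, 542 and 1422 CPM in treated library 1, treated library 3 and the control and a ratio of 11.7 (11.1 to 12.3). FLNC, filamin C of the Z-disc, stood at 14622 and 1917 CPM, a ratio of 7.63 (7.41 to 7.85), and its main unigenes held 43952 and 14153 counts in treated library 1 against 3414 and 1757 in treated library 3. BAG3, a co-chaperone that disposes of damaged filamin, had a ratio of 7.31 (6.47 to 8.27), and MYF6, a myogenic factor also known as MRF4, one of 5.38 (4.73 to 6.15). DES, the intermediate filament desmin, was close to level at 14610 and 12691 CPM. MYOG, the myogenic factor myogenin, went the other way with 25 and 87 counts, a ratio of 0.19 (0.12 to 0.31), in a unigene of 78% protein identity.

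Among heat shock proteins and chaperones, 10 of 23 (43.5%, against 13.4% of all genes) were at least 2-fold higher in treated library 1. The other direction had 0 genes past 2-fold, and the median log2 ratio was 0.91. DNAJB4, an Hsp40 co-chaperone, had 2539 and 96 counts, a ratio of 17.9 (14.6 to 22.2). HSPB8, which works with BAG3, stood at 4112 and 631 CPM. Of its counts, 17.0% lay in a unigene of 34% identity, with 2601 and 479 counts, and its unigene of 100% identity had 13812 and 1224. HSPA1L, an Hsp70 protein, stood at 7174 and 1286 CPM, in a main unigene of 90% identity. As Hsp70 genes are near copies the counts may be shared between them. HSPH1 had a ratio of 5.62 (4.19 to 7.70). HSPB6, a small heat shock protein phosphorylated by protein kinase A, had 1.81 (1.74 to 1.88). The name CRYAB, αB-crystallin, joined a unigene of 100% identity with another of 48% identity whose best nucleotide match is HSPB1. The first had 59999 counts in treated library 1 and 2870 in treated library 3, a ratio of 14.1 (13.6 to 14.7), and the second had 31391 and 2202, a ratio of 9.64 (9.23 to 10.1). Both small heat shock proteins were higher in treated library 1, so the direction of the joined ratio of 12.2 did not depend on which was counted.

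Of 17 FOXO factors and genes linked to muscle atrophy, 7 (41.2%, against 13.4% of all genes) were at least 2-fold higher in treated library 1. The list had 0 genes at least 2-fold lower and a median log2 ratio of 0.60. Besides TRIM63, the second muscle ubiquitin ligase FBXO32 had 163 and 32 counts, a ratio of 3.44 (2.35 to 5.20). MSTN, the growth inhibitor myostatin, had 153 and 8 counts, a ratio of 12.9 (6.40 to 30.5), and KLF15, a metabolic transcription factor, had 237 and 30. GABARAPL1, an autophagy protein, had a ratio of 4.27 (3.13 to 5.94) in a unigene of 71% identity. SQSTM1, an autophagy receptor, stood at 391 and 318 CPM and DDIT4, an inhibitor of mTOR, at 301 and 238, both within 2-fold. TXNIP, which lowers glucose uptake, had a ratio of 1.79 (1.71 to 1.87).

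Slow fibre and fast fibre genes leaned to opposite sides. Of 15 slow fibre genes, 14 had a ratio above 1, with a median log2 ratio of 0.67. In treated library 1, 6 (40%) were at least 2-fold higher and 1 (6.67%) at least 2-fold lower, against 13.4% and 6.46% of all genes. The 6 genes were MYH7B, CSRP3, ANKRD2, MYOZ2, LMOD2 and MYL6B, of which CSRP3 and ANKRD2 also stand on the list of strain genes and LMOD2 came inside 2-fold when its most abundant unigene was counted alone. The gene that went the other way was MYL3, the slow essential light chain, with 23 and 38 counts, a ratio of 0.41 (0.23 to 0.70), and 196 CPM in the control. MYH7B, a slow-tonic type myosin heavy chain, had 2317 and 193 counts, and CSRP3, the Z-disc protein MLP, had 1518, 219 and 2674 CPM in treated library 1, treated library 3 and the control. Thus for CSRP3 the control exceeded both. Other slow structural proteins differed less: TNNT1, slow troponin T, had a ratio of 1.25 (1.22 to 1.27), MYL2, the slow regulatory light chain, 1.23 (1.18 to 1.27) and MYBPC1 1.13 (1.09 to 1.17). TNNC1, slow troponin C, had 1.27 (1.26 to 1.28), but 86.8% of its counts lay in a unigene of 71% identity whose nucleotide match is fast TNNC2.

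Of 12 fast fibre genes, 1, under the name MYH4, had a ratio above 1, and the median log2 ratio was -0.46. In treated library 1, 0 were at least 2-fold higher and 2 (16.7%) at least 2-fold lower, against 13.4% and 6.46% of all genes. The 2 genes were MYH2 and CKM, muscle creatine kinase, which had 145530 counts in treated library 1 and 221452 in treated library 3, or 36464 and 82090 CPM with 51044 in the control. CKM had the most counts of any goat gene in treated library 3, and the name MYH4 had the most in treated library 1. MYH4, named from a protein match of 83%, stood at 48400 and 44797 CPM, TNNT3, fast troponin T, at 28302 and 32959, and ATP2A1, the fast calcium pump, at 7490 and 10478. The best nucleotide match of the MYH4 unigene carries the symbol OMYHCS, and that of MYH2 carries OMYHC2A. The name MYH4 alone thus does not settle its fibre type. MYBPC2, fast myosin-binding protein C, had a ratio of 0.55 (0.54 to 0.56). The name ACTA2, whose counts are those of skeletal actin by nucleotide match, had 24725 and 55399 CPM and a ratio of 0.45 (0.44 to 0.45). CKM and ACTA2 came inside 2-fold with all expected counts as the total and in the comparison centred on GC content.

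Energy metabolism genes were mostly lower in treated library 1. Of 25 glycolysis and glycogen genes, 6 had a ratio above 1, with a median log2 ratio of -0.49. There were 1 (4%) at least 2-fold higher and 3 (12%) at least 2-fold lower, against 13.4% and 6.46% of all genes. GAPDH stood at 16679 and 31474 CPM with 18289 in the control, a ratio of 0.530 (0.525 to 0.535), and ALDOA, aldolase A, at 26416 and 40902, a ratio of 0.65. PGAM2, muscle phosphoglycerate mutase, had 0.41 (0.40 to 0.42), PGM1, phosphoglucomutase, 0.44 (0.42 to 0.47) and PKM, pyruvate kinase, 0.46 (0.44 to 0.47). PYGM, muscle glycogen phosphorylase, had 0.65 (0.64 to 0.67). The exception past 2-fold was HK2, the hexokinase that insulin and contraction induce, with 247 and 60 counts, a ratio of 2.78 (2.09 to 3.75).

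In the citric acid cycle list, 3 of 22 genes had a ratio above 1, with a median log2 ratio of -0.48. Past 2-fold were 1 (4.55%) higher in treated library 1 and 4 (18.2%) lower, against 13.4% and 6.46% of all genes. MDH2, mitochondrial malate dehydrogenase, had 1169 and 2865 counts, 3.63-fold higher in treated library 3 (3.39 to 3.88), and stood at 1003 CPM in the control against 293 and 1062. GOT2, the mitochondrial aspartate aminotransferase, had 0.36 (0.33 to 0.39). PDK4, the kinase that switches off pyruvate dehydrogenase, went the other way with 438 and 110 CPM, a ratio of 3.97 (3.51 to 4.50), while the control held 1954 CPM. The pyruvate dehydrogenase subunit PDHA1 and its inhibitor PDK4 thus differed in opposite directions between the 2 libraries.

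Of 21 fatty acid genes, 4 lay above 1, and the median log2 ratio was -0.36. In treated library 1, 2 were at least 2-fold higher and 2 at least 2-fold lower, 9.52% each way against 13.4% and 6.46% of all genes. LPL, lipoprotein lipase, had 674 and 94 counts, a ratio of 4.85 (3.90 to 6.08), and PLIN2, a lipid droplet coat protein, had 55 and 8. At the other end MLYCD, malonyl-CoA decarboxylase, had 69 and 159 counts, a ratio of 0.29 (0.22 to 0.39), followed after UCP3 by genes within 2-fold such as HADHA of the trifunctional protein at 0.57 (0.52 to 0.62), CD36, a fatty acid transporter, at 0.70 (0.62 to 0.79) and ACADVL, a long-chain acyl-CoA dehydrogenase, at 0.81 (0.73 to 0.89).

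Nuclear genes of the respiratory chain that were described, 53 from a list of 80, lay mostly on 1 side. Of the 53, 45 had a ratio below 1, with a median log2 ratio of -0.49. They held no nuclear subunit of complex IV, and only UQCRC2 of complex III. Past 2-fold were 0 higher in treated library 1 and 7 (13.2%) lower, against 13.4% and 6.46% of all genes. Among the 7 were subunits of complexes I, II and III and of ATP synthase. NDUFV3, a small complex I subunit, had 94 and 186 counts, a ratio of 0.34 (0.26 to 0.44). ATP5B, the catalytic β subunit of ATP synthase, stood at 501, 1304 and 1803 CPM in treated library 1, treated library 3 and the control, a ratio of 0.38 (0.36 to 0.41). UQCRC2 of complex III had 0.40 (0.36 to 0.44) and SDHA of complex II 0.42 (0.39 to 0.45). The medians of the 4 lists of energy metabolism stayed below 0 under each scaling tried, although PGAM2, PGM1, PKM and SDHA, among others, came inside 2-fold with all expected counts as the total. The alternative that added the mitochondrially encoded proteins to the sum moved log2 ratios up by 0.35. It brought the fatty acid median of -0.36 close to level. Respiratory chain subunits encoded in the mitochondrion were not in the main sum. As shares of all counts, cytochrome c oxidase subunit I took 13.1% and 18.6% of treated libraries 1 and 3, and NADH dehydrogenase subunit 4 took 3.60% and 6.15%.

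Housekeeping machinery showed small differences. Cytosolic ribosomal proteins had a median log2 ratio of 0.08 over 64 genes, which was below 0 when the 20 most abundant genes were left out of the sum. In treated library 1, 1 gene (1.56%) was at least 2-fold higher and 0 were at least 2-fold lower, against 13.4% and 6.46% of all genes. The higher gene, RPL22, had 691 and 308 CPM and came just inside 2-fold without the 20 most abundant genes. Mitochondrial ribosomal proteins had a median of -0.06 over 69 genes, with 1 at least 2-fold higher (MRPS18C) and 2 at least 2-fold lower (MRPL34 and MRPL37). These were 1.45% and 2.90% of the list, both under the shares of all genes. MRPS18C, at 2.05 (1.48 to 2.89), came inside 2-fold under 3 alternatives, lowest at 1.48 when centred on GC content, and MRPL37 did so under 3 as well. Translation factors had a median of -0.03 over 48 genes, with 5 higher and 1 lower, or 10.4% and 2.08%, both under the shares of all genes; EIF5 had a ratio of 3.65 (3.13 to 4.28), EIF4E, the cap-binding protein, 2.90 (2.36 to 3.59) or 1.81 when centred on GC content, inside 2-fold, and the name EEF1A1, whose main unigene matches the muscle form EEF1A2, 0.44 (0.43 to 0.45), which came inside 2-fold with all expected counts as the total. Mitochondrial ribosomal proteins and translation factors had medians above 0 with all expected counts as the total. Proteasome subunits had a median of 0.18 over 43 genes, with 3 higher and 1 lower, or 6.98% and 2.33%, both also under the shares of all genes. The core subunit PSMA3 had a ratio of 2.80 (2.24 to 3.52) and PSMD13 of the regulatory particle one of 0.32 (0.25 to 0.42).

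Among splicing factors, 13 of 40 (32.5%) were at least 2-fold higher in treated library 1 and 1 (2.5%) at least 2-fold lower. The shares of all genes were 13.4% and 6.46%, and the median log2 ratio of the list was 0.46. The serine-arginine proteins SRSF6, SRSF5, SRSF7 and SRSF11 had ratios of 5.26 (4.30 to 6.48), 4.21 (2.33 to 8.25), 3.55 (2.68 to 4.78) and 3.37 (2.45 to 4.71). HNRNPA2B1, an RNA-binding protein, had 3209 and 863 counts, a ratio of 2.51 (2.33 to 2.71) that came inside 2-fold, at 1.82, when centred on GC content. HNRNPC, SNRPB2, SNRPG, SRSF10 and SRSF1 also came inside 2-fold there, SRSF1 lowest at 1.25, as did HNRNPUL2, the gene that was lower. SRSF1 did so too with a median ratio of 1, in TPM and without the 20 most abundant genes. The list had a median GC content of 46.8%, and its median log2 ratio was 0.36 when centred on genes of like GC content.

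The remaining lists had members at both ends. Among 30 extracellular matrix and integrin genes, 5 were at least 2-fold higher in treated library 1 and 5 at least 2-fold lower, 16.7% each way against 13.4% and 6.46% of all genes, and the median of -0.06 was above 0 with all expected counts as the total. THBS1, FN1, ITGA5, COL18A1 and TIMP3 were the former, of which FN1 came inside 2-fold in TPM and TIMP3 without the 20 most abundant genes. LAMC1, HSPG2, BGN, SPARC and ITGB5 were the latter, and ITGB5 came inside 2-fold with all expected counts as the total; SPARC, a collagen-binding protein, had 359 and 647 counts, a ratio of 0.38 (0.33 to 0.43), and HSPG2, perlecan of basement membranes, 0.34 (0.29 to 0.41). Among 11 clock genes, 4 were at least 2-fold higher (NFIL3, CRY1, PER1 and PER2) and 2 at least 2-fold lower (NR1D1 and DBP, the second inside 2-fold with all expected counts as the total). These were 36.4% and 18.2% of the clock genes, against 13.4% and 6.46% of all genes. CRY1, a repressor of the clock, had a ratio of 5.56 (3.40 to 9.64) and NR1D1, the nuclear receptor REV-ERBα, one of 0.32 (0.25 to 0.40), while the collection hour of a library is not in the labels. The list of 11 genes had a median log2 ratio of -0.55 and a range from -1.66 to 3.88.

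Among 9 myogenic regulators, 3 were at least 2-fold higher in treated library 1 (MSTN, MYF6 and CITED2) and 1 at least 2-fold lower (MYOG). These were 33.3% and 11.1% of the 9, against 13.4% and 6.46% of all genes. MEF2C had a ratio of 1.56 (1.40 to 1.73). Insulin, IGF and mTOR genes had 1 of 11 at least 2-fold higher (9.09%, under the 13.4% of all genes), the insulin receptor INSR with 43 and 12 counts, and 0 at least 2-fold lower; SLC2A4, the glucose transporter GLUT4, had 1.83 (1.56 to 2.14) and AKT2, its upstream kinase, 0.68 (0.56 to 0.84). Calcium release and reuptake genes had 2 of 20 (10%, also under that share) at least 2-fold higher and 0 at least 2-fold lower. PLN, phospholamban, the brake on the slow calcium pump that protein kinase A releases, had 1602 and 361 counts, a ratio of 3.00 (2.67 to 3.37) or 1.87 when centred on GC content, inside 2-fold, and RYR1, the calcium release channel, stood at 2669 and 3503 CPM. Giant sarcomere and M-band proteins had 2 of 16 (12.5%) at least 2-fold higher, MYOM3 at 4.58 (3.89 to 5.41) and ACTN2, α-actinin-2 of the Z-disc, at 3.28 (3.15 to 3.42), and 0 at least 2-fold lower. Their medians of -0.08 and -0.12 were above 0 with all expected counts as the total.

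**Figure D3:**
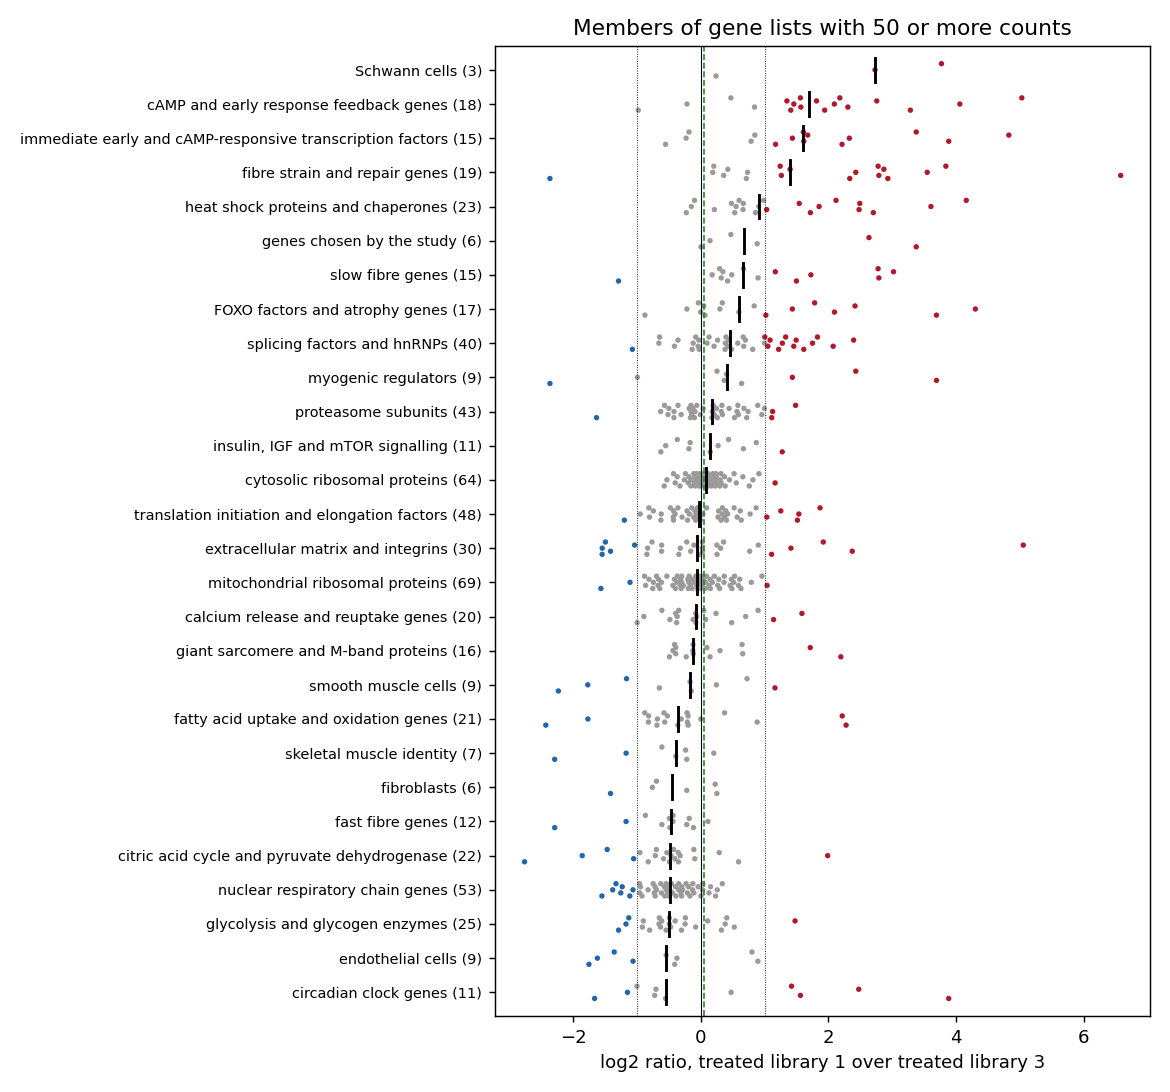
The log2 ratio of treated library 1 over treated library 3 for every member with 50 or more counts, by gene list, with the number of members in brackets. Black bars are the list medians, the dashed green line is the median of all genes (0.05), and dotted lines mark 2-fold; the early response, feedback and strain lists and the 3 Schwann cell markers have medians beyond 1, and the metabolic lists lie between -0.5 and -0.3.

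Of the 8 genes chosen by the study from its own RNA-seq data, the 6 described ranged from level to 10.4-fold. Because the study chose them on these data, by comparison with the control, their levels here are not independent evidence for that choice. The study reports all of them except the non-muscle myosin and the lipase as raised over the control by RNA-seq. NEB and FOXO1 went the other way here, below the control in both treated libraries. CREM and PDE4C were close to the control in treated library 3. FABP5, LOC102185492, MYH9 and HSL kept the published direction in both, and why the others differed was not tested. CREM stood at 462, 44.5 and 38.9 CPM in treated library 1, treated library 3 and the control, a ratio of 10.4 (8.63 to 12.6), so that treated library 3 was close to the control. LOC102185492, an immunoglobulin gene, had 193 and 21 counts, a ratio of 6.21 (3.95 to 10.3), with 7 counts in the control. Of the 193 counts, 172 lay in a unigene of 33% identity that matches an immunoglobulin gamma chain of sheep. FABP5, a fatty acid-binding protein, stood at 444, 241 and 92.3 CPM, a ratio of 1.84 (1.69 to 2.02). For FABP5 both treated libraries exceeded the control. PDE4C had 411, 297 and 280 CPM. NEB, nebulin of the thin filament, had 2498, 2260 and 7337 CPM, a ratio of 1.11 (1.07 to 1.14), and its sign reversed when the 20 most abundant genes were left out. MYH9, a non-muscle myosin heavy chain, had 102 CPM in both treated libraries, a ratio of 1.00 (0.86 to 1.17), against 187 in the control. The lipase gene named HSL had 10 and 11 counts, a ratio of 0.61 (0.23 to 1.59). FOXO1 had 15 and 1, a ratio of 10.1 (1.56 to 427). In treated library 1, treated library 3 and the control, HSL stood at 2.51, 4.08 and 11.0 CPM. In the same order FOXO1 stood at 3.76, 0.37 and 41.2 CPM, so both treated libraries lay far below the control. Both genes were under the minimum. The interval of HSL held 1 and that of FOXO1 lay above it on few counts.

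Markers of other cell types differed in both directions. Of 9 endothelial markers described, 0 were at least 2-fold higher in treated library 1 and 4 (CDH5, EMCN, KDR and VWF) were at least 2-fold lower, CDH5 coming inside 2-fold with all expected counts as the total. The 4 were 44.4% of those described, against 6.46% of all genes. The whole endothelial list summed to 396 and 625 CPM in treated libraries 1 and 3 and to 425 in the control. VWF, von Willebrand factor, had 216 and 492 counts, a ratio of 0.30 (0.25 to 0.35), and EGFL7 and TEK had ratios above 1. Among pericyte and smooth muscle markers, RGS5 had 57 and 181 counts and NOTCH3 26 and 60, while CNN1 was higher in treated library 1 with 53 and 16, just inside 2-fold without the 20 most abundant genes; NOTCH3 came inside 2-fold when its most abundant unigene was counted alone, and the list's sum is set by skeletal actin and is not read. Fibroblast markers summed to 327 and 570 CPM, with SPARC the only 1 of 6 past 2-fold. It was lower in treated library 1, and made 16.7% of those described, against 6.46% of all genes.

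Some small populations pointed the other way. The 2 adipocyte markers described, ADIPOQ and DGAT2, were both at least 2-fold higher in treated library 1, against 13.4% of all genes. DGAT2 had a ratio of 2.18 (1.58 to 3.05), and of 1.94 without the 20 most abundant genes. ADIPOQ, the hormone adiponectin, had 403 counts against 64 with 75 in the control, a ratio of 4.26 (3.26 to 5.63). The adipocyte list summed to 157, 53.4 and 51.6 CPM in treated library 1, treated library 3 and the control. Schwann cell markers summed to 259, 70.4 and 38.0 CPM. PMP22, a peripheral myelin protein also made by other cells, had 736 and 75 counts and S100B 101 and 5, while SOX10, a transcription factor of Schwann cells, had 2 and 0. Myeloid markers summed to 29.3 and 9.64 CPM with no member at 50 counts, CD14 at 0 in both libraries and the complement gene C1QB at 38 and 4 counts. T cell markers had 6 and 4 counts in all. The part of these cell types in the differences of vascular, fat or immune genes was not tested.

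The ratio went with base composition. With the genes in 4 equal bins by GC content, the lowest bin, at a median of 40.8%, had 22.6% of genes at least 2-fold higher in treated library 1 and 1.22% at least 2-fold lower, and in the highest bin, at a median of 62.5%, the shares were 7.94% and 11.7%. The median log2 ratio went from 0.43 through 0.08 and -0.12 to -0.18 over the 4 bins. Unigene length and level made less difference, with medians of 0.01 in the shortest and 0.10 in the longest bin, and of 0.12 in the lowest and -0.04 in the highest bin by level. Centred on the median of genes in the same of 20 bins of GC content, 651 genes were at least 2-fold higher and 296 at least 2-fold lower. The medians of the early response, feedback and strain lists were then 1.69, 1.76 and 1.49, and those of the respiratory chain, citric acid cycle and glycolysis lists -0.46, -0.53 and -0.38.

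**Figure D4:**
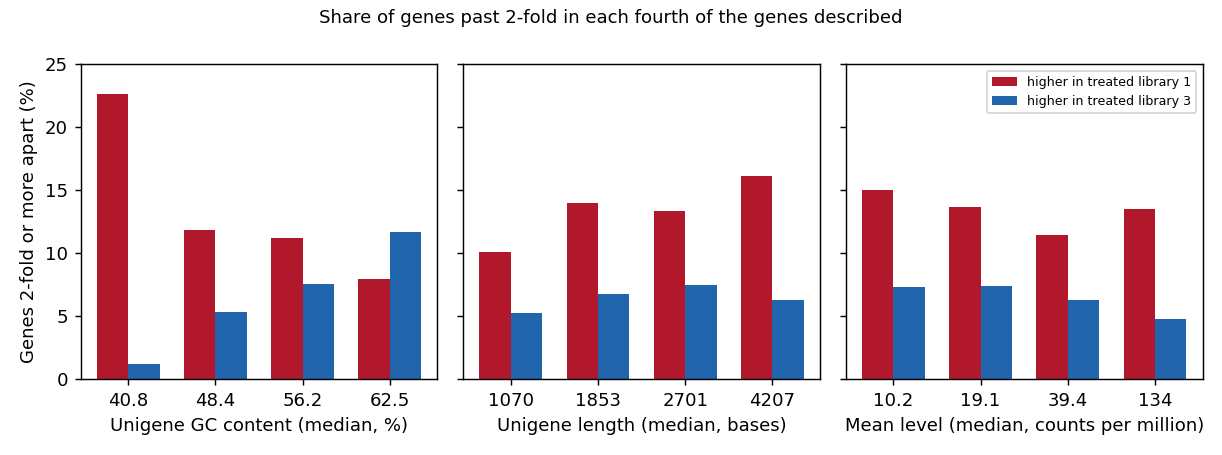
Percent of genes at least 2-fold higher in treated library 1 (red) or in treated library 3 (blue) in each of 4 equal bins of the 5590 genes, ordered by GC content, length or mean level, with the median of each bin on the horizontal axis. The red bars go down from 22.6% to 7.94% with GC content and the blue bars go up from 1.22% to 11.7%; over the bins by length the red bars lie between 10.1% and 16.2%, and over those by level between 11.5% and 15.0%.

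The AU-rich letters TATTTAT, which occur in the 3′ ends of many short-lived mRNAs, were searched on the coding strand downstream of the coding stretch, in the most abundant unigene of 4607 genes with 200 or more bases there. They were present in 23.6% of all these genes, in 31.1% of the 649 that were higher in treated library 1 and in 20.7% of the 285 that were higher in treated library 3. GC content differed as well, with medians of 39.7% and 54.0% downstream in the latter 2 groups, and within the bin of lowest downstream GC content the shares were 42.6% of 263 genes and 42.9% of only 14, against 37.8% of all genes there. Within the next of the 4 bins they were 33.5% and 26.6% against 26.3%. In the remaining 2 bins the share was lower among genes higher in treated library 1, at 21.2% and 25.3% against 18.2% and then at 9.62% and 12.5% against 12.1%. OTUD1 and TFRC, at opposite ends of the ranking, held 3 such matches each, THBS1, FOS and FOSL2 2 each, and XIRP1, RCAN1 and CREM 0.

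Separate unigenes of the same gene often differed. Among 217 genes with 2 or more unigenes of 50 or more counts, 129 had all their unigenes on the same side of a ratio of 1, and the median span between them was 0.92 on the log2 scale. The 7 unigenes of MYH7B had log2 ratios from 2.54 to 3.49. The 4 of MYH2, short fragments with a count-weighted length of 292 bases, had log2 ratios from -2.96 to -2.10. ACTN2 was less even, with 1.74 in the main unigene and 0.59 in the other, and for ATP2A2, the slow calcium pump, the values ran from -0.87 to 1.99, so its ratio of 1.86 depended on the unigene counted.

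The control library gave a further point of reference. Among the 750 genes higher in treated library 1, the control lay between the 2 treated libraries for 477, above both for 137 and below both for 136. Among the 361 genes higher in treated library 3 it lay between them for 137, above both for 194 and below both for 30. Over all 5590 genes the control lay between for 25.8%, above both for 50.9% and below both for 23.2%, and a gene chosen for the distance between 2 libraries leaves more room between them. Genes that were low in treated library 1 but high in the control, such as PDHA1, UCP3, MYH2, ATP5B and SNTB1, belong to the 194, and XIRP1, OTUD1 and RCAN1 belong to the 477.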

How the data were processed

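RNA-seq libraries from goat longissimus muscle were made by the authors with the NEBNext Ultra kit and sequenced on an Illumina HiSeq instrument. Per the labels, FastQC 0.10.1 was among the tools; the assembler and the counting tool are not given in the sources used here. The authors deposited expected counts for 59774 unigenes, which were all whole numbers, with TPM beside them, and the transcript table gave the same sums as the unigene table. A further table deposited by the authors pairs unigenes with goat genes and states, in percent, how identical the matched proteins are.

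Expected counts of 21195 unigenes were summed by goat gene name and divided by the library's sum over the 11208 names. The 25 unigenes without a gene name, which match mitochondrially encoded proteins, stayed out of the sum. Of the names, 10197 were among the symbols of the RefSeq assembly ARS1.2, which was used for names only. Genes with 50 or more counts in the 2 libraries were described. Where a count was 0, 0.5 was added to both counts for the log2 ratio only. The GC content and length of a gene are those of its unigene with the most counts. Ratios carry 95% exact Clopper-Pearson intervals; with 1 library a side, no condition was tested and no library could be left out. The procedure was tested on simulated counts.

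Named genes are the 8 chosen by the study, the 12 at each end of the interval bounds, the 5 with most counts in either library, and up to 4 most abundant and 4 most extreme members of each list; others were named to spell out counts and were chosen after their values were seen. The genes and lists were chosen with earlier results of these data known. Alternatives were 4 scalings, 3 minimum counts, other limits, 80% identity, single unigenes, the transcript table, TPM and GC bins. Calculations ran in Python 3.11.15 with scipy 1.17.1 and numpy 2.4.6 on tables held in pandas 2.3.3, and plots came from matplotlib 3.10.9. A few named members of the lists are not reported here.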

Additional observations from a re-analysis of the deposited data

Results flagged for a closer look

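Counts outside the comparison of named goat genes exceeded the share seen in the control library. Unigenes without a goat gene pairing took 12.4% of all counts in treated library 1 and 9.86% in treated library 3, against 6.45% in the control. Those among them whose best nucleotide match was Escherichia coli or Shigella took 3.71% and 2.50%, against 1.27%. Mitochondrially encoded proteins without a gene name took 37.5% and 49.7%, against 22.2%. There was 1 control library, and the part of these shares in the ratios of goat genes was not tested.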

How the results depend on the processing

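The counts of genes at least 2-fold higher in treated library 1 and in treated library 3 were 750 and 361. They became 1172 and 154 with all expected counts as the total, 1257 and 132 when the mitochondrially encoded proteins joined the sum (chosen after seeing the data), and 592 and 554 without the 20 most abundant genes. With a minimum of 20 counts they were 1017 and 591, with 200 counts 347 and 129, and with no minimum 2074 and 1714. A limit of 1.5 gave 1390 and 954, a limit of 3 gave 336 and 81, and whole intervals beyond 2-fold gave 352 and 108. Scaling to a median ratio of 1, matches of 80% identity or more, the most abundant unigene, the transcript table, TPM and GC bins (also chosen after seeing the data) stayed within 1.5 times of both counts. The longest bin by unigene length lay 0.09 above the shortest in median log2 ratio and 0.10 with count-weighted length. Of the 28 lists with 3 or more members described, the 4 with medians past 1 on the log2 scale stayed past it under the 9 alternatives run on lists; the adipocyte and B cell lists, of 2 and 1 genes, were not run. Of 113 named genes past 2-fold, 10 came inside it with all expected counts as the total and 11 when the mitochondrially encoded proteins joined the sum. Without the 20 most abundant genes 7 did and with GC bins 12 of 112, and 0 of these genes changed direction under any alternative run. The 4 scalings shift all log2 ratios alike, by 0.35 at most, so they could not reverse a gene past 2-fold. IER2 and ZFP36L1, list members outside the 113, fell below a ratio of 1 with matches of 80% identity or more. No paired analysis was possible because each side had 1 library, and no library could be left out. Depth limits genes with few counts, and the spread between goats was not measured.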
